A study of Homo sapiens with 9 samples.

Results

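Metallothioneins are small cysteine-rich proteins that bind zinc, copper and other metals, platinum among them. Their genes lie in a cluster on chromosome 16 and are switched on by MTF1, a zinc-sensing transcription factor that binds short metal response elements in promoters. The zinc exporter gene SLC30A1 is another target of MTF1, while zinc importers of the SLC39 family bring the metal into the cytosol. In ovarian carcinoma lines, high metallothionein is known as a trait of some cells that resist cisplatin. The transcripts described here are those of 10 genes of 24542 genes and loci in the count table, taken by name through their Ensembl identifiers. They are the metallothionein genes MT1E, MT1F, MT1G, MT1M, MT1X and MT2A, the regulator MTF1, the exporter SLC30A1 and the importers SLC39A10 and SLC39A14.

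RNA was sequenced from A2780 cells, a wild-type line from a human ovarian carcinoma, after 96 h in 3 groups of 3 libraries. One group received 5.5 µM Pt-ttpy, which the title of the series calls a G-quadruplex binder built around platinum. Another received the drug written "Cispt" in the labels, read here as cisplatin, at 0.6 µM, and the labels place both doses at the IC80 of the drug. The third group received 0.5% DMSO, and the labels do not say whether the drugs were given in DMSO. The labels call the libraries biological replicates and do not say whether they came from separate cultures, and if they did not, the spread behind each p-value may be technical.

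Library totals were 32354768 to 35052716 counts with Pt-ttpy, 31264474 to 39498835 with cisplatin and 36399578 to 40826035 with DMSO. Cisplatin 2 and DMSO 2 held relatively more counts from GC-rich transcripts (Spearman rho of each gene's deviation from its mean log2 level against GC content 0.41 and 0.51 across 13383 genes, which are not independent replicates), against rho of -0.34 to -0.16 for the remaining 7. Both stood apart from the rest of their groups, so main results are also given without them. Of 9 epithelial and ovarian carcinoma markers all averaged under 1 CPM (a level relative to the TMM-scaled size of the library), with PAX8 at 0.075 CPM and KRT7 at 0, and they summed to 0.739 to 1.19 CPM with Pt-ttpy, 1.72 to 3.55 with cisplatin and 0.372 to 0.591 with DMSO. Of the 3 tested, EPCAM and KRT8 were called higher with cisplatin than with DMSO and 0 with Pt-ttpy, at 121 and 217 counts over all libraries. Of all genes tested 10.7% were called higher with cisplatin and 5.59% with Pt-ttpy. KRT8 with Pt-ttpy also did not overlap DMSO (log2 3.09, edgeR adjusted p = 0.0587). Neither EPCAM nor KRT8 was called between the drugs (edgeR adjusted p = 0.631 and 0.648). The 7 fibroblast markers were all above 1 CPM, led by COL3A1 at 742 CPM. With each drug 4 were called higher than with DMSO, beside 5.59% of all genes tested with Pt-ttpy and 10.7% with cisplatin. COL1A1 and THY1 had negative log2 changes with each drug and were not called. The summed level of all 7 was 1685 to 1757 CPM with Pt-ttpy, 1612 to 1900 with cisplatin and 1016 to 1089 with DMSO. Markers of leukocytes, endothelium and red cells were under 1 CPM except CD68 at 4.16 CPM. The part of these markers in the changes below was not tested. As RNA came from whole cultures, fewer cells of a kind and less RNA per cell cannot be told apart.

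Only part of the metallothionein family was measurable in these cells. MT1E, MT1G and MT1M had 0 counts in all 9 libraries, and a floor chosen at 3 counts per library corresponds to 0.0711 to 0.0966 CPM. Of the 6 other metallothionein genes, MT1B, MT1H, MT1HL1, MT3 and MT4 also had 0 counts, and MT1A had between 0 and 30. The genes of this family are close copies, so reads can be shared among them. Of all 50-base stretches of the transcripts, 92.9% were found in no other gene for MT1E, 83.5% for MT1G and 90.1% for MT1M. The share was 97.0% for MT2A, 98.8% for MT1F and 81.7% for MT1X. MT1X shares exon bases with a non-coding transcript on the same strand, so its counts are uncertain to that extent.

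MT2A (ENSG00000125148; GRCh38, GENCODE 29, chromosome 16, 56608199 to 56609497), MT1F (56657694 to 56660698) and MT1X (56682424 to 56684196) carried most of the metallothionein counts. MTF1 lies on chromosome 1 (37809567 to 37859620), as does SLC30A1 (211571568 to 211578742). SLC39A10 lies on chromosome 2 (195575977 to 195737702) and SLC39A14 on chromosome 8 (22367249 to 22434129). These 7 of the 10 genes passed the filter on low counts, each with counts in all 3 groups.

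The promoters of MT2A, MT1X and SLC30A1 are shown because these were the 3 members called lower with Pt-ttpy, and because they hold the letters that MTF1 is known to read. Each sequence is RefSeq's window of 250 bases before and 50 after the transcription start, on GRCh38.p14 and in the direction of the gene. These starts differ from the GENCODE gene ends given above, and sites before and after the start are counted from RefSeq's start. The MT2A window lies wholly inside the GENCODE gene, and the SLC30A1 window wholly outside its GENCODE gene. Capitals mark the core of the metal response element, searched as TGCACNC or TGCGCNC on both strands, and no marked sites overlap.

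MT2A promoter, chr16:56608334-56608633, plus strand: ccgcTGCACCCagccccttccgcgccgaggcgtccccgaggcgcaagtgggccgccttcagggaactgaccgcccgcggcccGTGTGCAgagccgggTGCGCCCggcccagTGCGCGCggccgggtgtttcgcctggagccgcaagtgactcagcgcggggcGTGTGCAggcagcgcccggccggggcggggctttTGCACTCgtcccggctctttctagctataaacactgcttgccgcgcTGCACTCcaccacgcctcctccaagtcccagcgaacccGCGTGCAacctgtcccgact

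MT1X promoter, chr16:56682220-56682519, plus strand: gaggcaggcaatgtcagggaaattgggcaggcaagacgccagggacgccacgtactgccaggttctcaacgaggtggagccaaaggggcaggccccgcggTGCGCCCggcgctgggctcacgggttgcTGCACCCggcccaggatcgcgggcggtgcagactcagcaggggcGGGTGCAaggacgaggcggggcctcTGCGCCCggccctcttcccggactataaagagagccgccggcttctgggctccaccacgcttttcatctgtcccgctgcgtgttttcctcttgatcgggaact

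SLC30A1 promoter, chr1:211579112-211579411, minus strand: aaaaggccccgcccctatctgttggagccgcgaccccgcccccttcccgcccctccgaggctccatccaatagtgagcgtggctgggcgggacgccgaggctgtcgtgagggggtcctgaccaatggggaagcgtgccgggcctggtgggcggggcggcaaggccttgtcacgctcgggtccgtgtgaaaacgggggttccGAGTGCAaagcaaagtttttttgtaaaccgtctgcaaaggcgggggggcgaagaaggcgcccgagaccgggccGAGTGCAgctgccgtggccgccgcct

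The MT2A window holds 8 such cores, 7 of them before the start. The MT1X window holds 4, all before the start, and the SLC30A1 window holds 2, of which 1 lies before the start. The MTF1 window holds 0, and the 2 windows listed for SLC39A10 hold 0 and 1. Of 35116 RefSeq promoter windows of the same length, 29.6% hold at least 1 core, 8.6% at least 2, 0.601% at least 4 and 0.0199% at least 8. The MT2A, MT1X and SLC30A1 windows hold 72%, 67% and 68% GC, and these shares were not matched for GC content. RefSeq windows were found for 5 of the 10 genes. A match of letters is a description and not a measured binding site.

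Compared per kilobase of the principal transcript, the importer SLC39A14 was the most abundant of the 10 genes in every group. Its mean level was 56.8 ± 2.49 CPM per kilobase with Pt-ttpy, 52.4 ± 0.719 with cisplatin and 61.5 ± 1.41 with DMSO (SD, n = 3 each). MT2A was next, at 17.3 ± 4.9 with Pt-ttpy, 15.9 ± 1.48 with cisplatin and 31.01 ± 4.05 with DMSO. With DMSO the order went on with SLC30A1 at 12.0 ± 1.98, MT1X at 9.9 ± 2.23 and SLC39A10 at 9.62 ± 3.89 CPM per kilobase, 3 genes whose values lay within each other's spread. MTF1 at 3.83 ± 0.0588 and MT1F at 2.17 ± 0.369 were lowest of the genes with any counts. With Pt-ttpy SLC39A10 stood at 13.4 ± 0.425, within the spread of MT2A, above SLC30A1 at 7.43 ± 0.418 and MT1X at 5.07 ± 0.73. MTF1 was at 2.6 ± 0.151 and MT1F at 0.644 ± 0.253. With cisplatin SLC39A10 at 13.6 ± 2.62, whose spread reached the MT2A mean, and SLC30A1 at 10.1 ± 2.57 were again above MT1X at 3.12 ± 0.472, MTF1 at 2.69 ± 0.707 and MT1F at 0.689 ± 0.476.

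**Figure D1:**
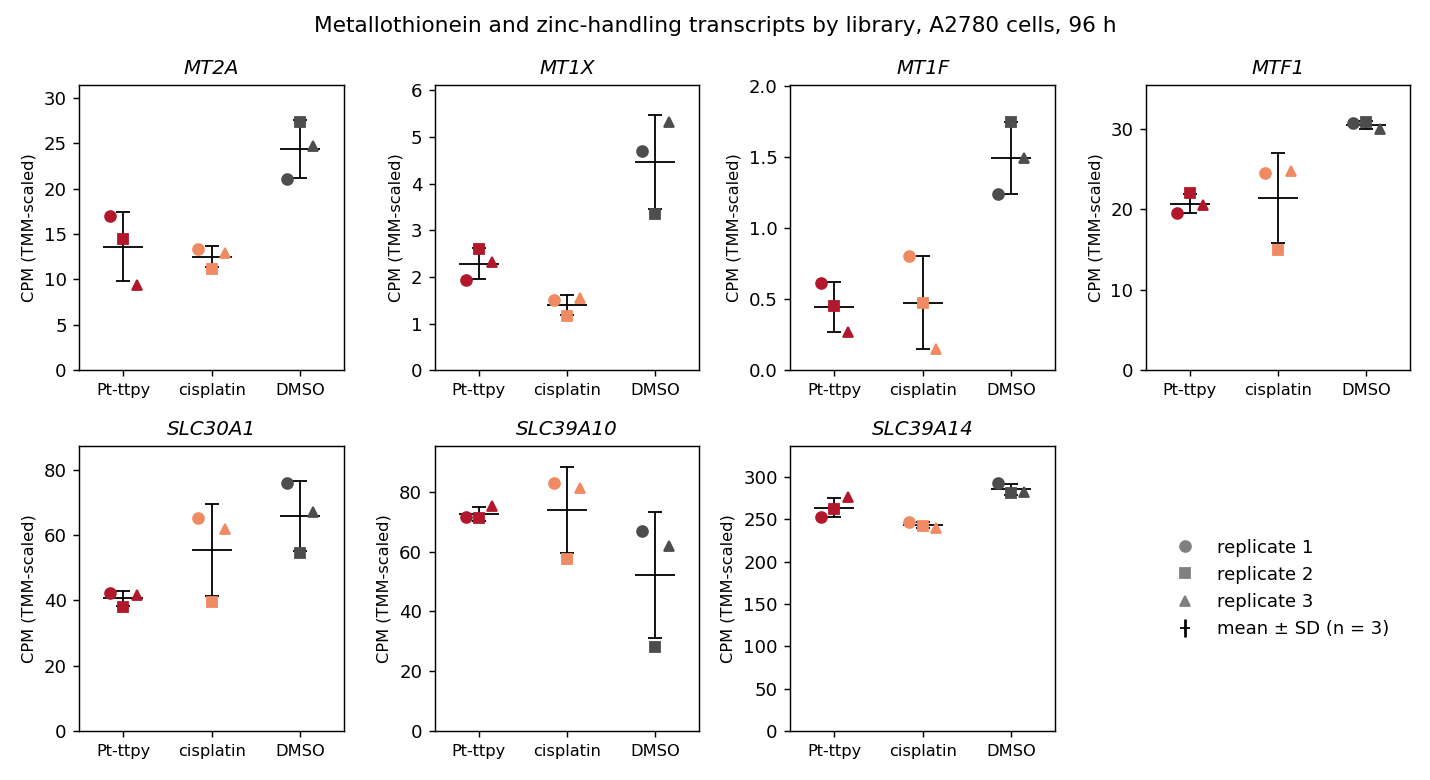
Level of each of the 7 genes that passed the filter, in CPM on a linear axis from 0, with 1 point per library, its shape giving the replicate number, and black bars for the mean ± SD of 3 libraries. MT2A, MT1X, MT1F, MTF1 and SLC39A14 lie lower in all 6 drug libraries than in the 3 DMSO libraries, and replicate 2 of DMSO lies far below its group for SLC39A10.

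After Pt-ttpy, the metallothioneins MT2A and MT1X and the zinc exporter SLC30A1 were lower than with DMSO. Of the 7 genes tested these 3 were called lower, 0 were called higher and 4, among them the metallothionein MT1F, were not called. Calls rest on edgeR's quasi-likelihood test with a Benjamini-Hochberg adjusted p under 0.05 over 15558 genes, of which 6.45% were called lower, 5.59% higher and 12.0% either way. Higher calls were 46.4% of all calls, and 61.2% with upper-quartile factors or 56.5% with library totals in place of TMM. The 3 Pt-ttpy libraries lay below all 3 DMSO libraries for 6 of the 7 genes and above them for 1, SLC39A10. Among all genes tested 20.6% were separated in the lower direction and 20.3% in the higher. The median log2 change of the 7 was -0.70, beside 0.03 over all genes tested.

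MT2A, the most abundant metallothionein of these cells, had 17.0, 14.5 and 9.42 CPM in Pt-ttpy libraries 1, 2 and 3, and 21.0, 27.3 and 24.8 CPM in DMSO libraries 1, 2 and 3. The highest Pt-ttpy library was below the lowest DMSO library. The level was 1.79-fold lower with Pt-ttpy (log2 change -0.84, SE 0.20, adjusted p = 0.0229). It was no longer called without Pt-ttpy 2 (log2 -0.88, adjusted p = 0.0841), Pt-ttpy 3 (-0.63, 0.0767), DMSO 2 (-0.74, 0.0636) or DMSO 3 (-0.83, 0.0562). In these fits 1.16%, 1.87%, 8.13% and 7.23% of all genes were called in that order, against 12.0% in the main fit. Without both cisplatin 2 and DMSO 2 the MT2A change was -0.74 (adjusted p = 0.0247), in a fit that called 33.2% of all genes.

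MT1X, another zinc-binding metallothionein, had 1.94, 2.59 and 2.31 CPM with Pt-ttpy (63, 92 and 78 counts), and 4.7, 3.35 and 5.32 CPM with DMSO (167, 117 and 213 counts). All Pt-ttpy values were below all DMSO values. It was 1.95-fold lower with Pt-ttpy (log2 -0.96, SE 0.27, adjusted p = 0.037). It missed the threshold without Pt-ttpy 1 (adjusted p = 0.135), Pt-ttpy 2 (0.0989), Pt-ttpy 3 (0.111), DMSO 1 (0.0804) or DMSO 3 (0.117), with log2 changes between -1.06 and -0.82 in these fits. The share of all genes called was 1.68%, 1.16%, 1.87%, 10.9% and 7.23% in that order, against 12.0% in the main fit. MT1X changed by -1.13 (adjusted p = 0.00263) without cisplatin 2 and DMSO 2, a fit that called 33.2% of all genes. It lost its call with library totals in place of TMM factors (0.0514).

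MT1F, a low-level metallothionein, had 20, 16 and 9 counts with Pt-ttpy (0.615, 0.451 and 0.267 CPM), and 44, 61 and 60 counts with DMSO (1.24, 1.75 and 1.5 CPM). The groups did not overlap. The log2 change was -1.74 with a 95% interval of -2.98 to -0.51 and was not called (adjusted p = 0.065). It passed the threshold with DESeq2's Wald test and in 3 other alternatives, with adjusted p between 0.026 and 0.196 over its 21 alternatives.

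The 3 metallothioneins summed to 19.5, 17.5 and 12.0 CPM in the Pt-ttpy libraries, 15.7, 12.8 and 14.6 in the cisplatin libraries and 27.0, 32.4 and 31.6 in the DMSO libraries. The mean sum with Pt-ttpy was 54.0% of that with DMSO, and the mean sum with cisplatin was 47.4% of it. MT1A, which is not among the 10 genes, was left out of the sum. It also passed the filter on low counts and was called by edgeR with neither drug against DMSO. Its log2 change against DMSO was -0.02 with Pt-ttpy (95% interval -2.52 to 2.47) and 0.78 with cisplatin (-1.63 to 3.19). MT2A gave most of the sum in every library. Its share of the counts was 82.7 ± 4.21% with Pt-ttpy, 87.0 ± 1.65% with cisplatin and 80.2 ± 3.53% with DMSO (SD, n = 3 each). In single libraries the share was highest at 88.5% in cisplatin 3 (exact 95% binomial interval 85.3 to 91.1%, which covers counting error only) and lowest at 78.0% in DMSO 1 (75.2 to 80.6%).

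**Figure D2:**
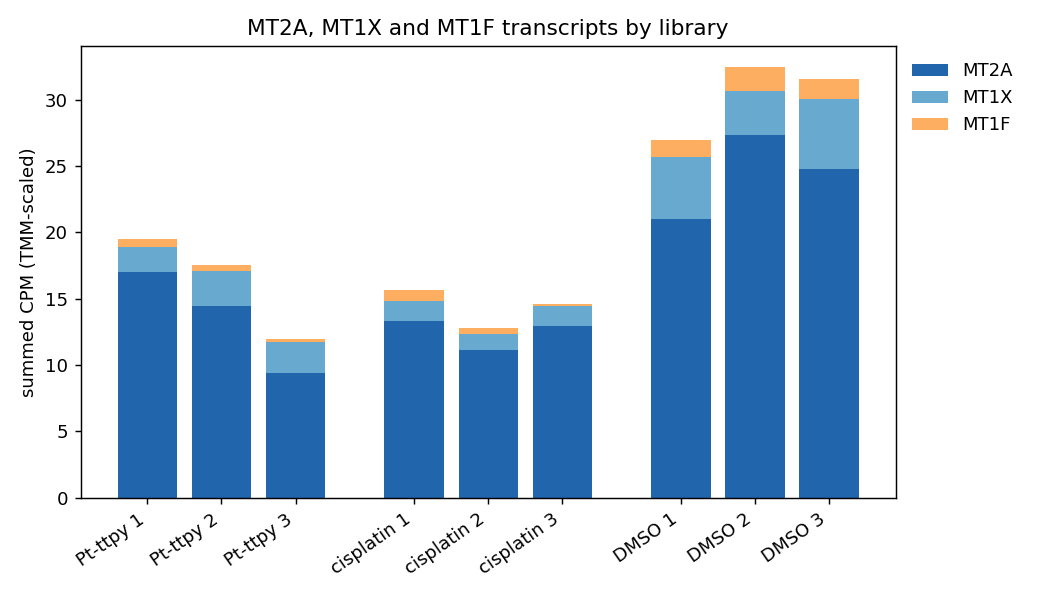
Summed level of MT2A, MT1X and MT1F in each library, in CPM, as stacked bars from 0. The 3 Pt-ttpy bars reach 12.0 to 19.5 CPM and the 3 cisplatin bars 12.8 to 15.7 CPM, all below the DMSO bars at 27.0 to 32.4 CPM, and MT2A makes up most of each bar.

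MTF1, the activator of metallothionein genes, had 19.6, 21.99 and 20.5 CPM with Pt-ttpy and 30.7, 30.8 and 29.97 CPM with DMSO. The groups were far apart and the DMSO libraries lay close together. Its log2 change of -0.56 (SE 0.17) was not called (adjusted p = 0.0567). Without cisplatin 2 and DMSO 2 the change was -0.55 and was called (adjusted p = 0.000168), 1 of 7 alternatives of 22 that called it. That fit without both libraries called 33.2% of all genes tested.

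SLC30A1, which exports zinc from the cytosol, had 42.4, 38.1 and 41.6 CPM with Pt-ttpy and 76.0, 54.5 and 67.1 CPM with DMSO. The values did not overlap. The level was 1.62-fold lower with Pt-ttpy (log2 -0.70, SE 0.18, adjusted p = 0.0305). Leaving out any of Pt-ttpy 1 (adjusted p = 0.0948), Pt-ttpy 2 (0.124), Pt-ttpy 3 (0.0936), DMSO 1 (0.0804) or DMSO 3 (0.0727) ended the call, with log2 changes from -0.73 to -0.58. In these fits 1.68%, 1.16%, 1.87%, 10.9% and 7.23% of all genes were called in that order, against 12.0% in the main fit. SLC30A1 changed by -0.81 (adjusted p = 2.52e-07) without cisplatin 2 and DMSO 2, a fit that called 33.2% of all genes. Its transcript is low in GC content, 37.98%, and among the cisplatin and the DMSO libraries replicate 2 had the lowest SLC30A1 level.

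SLC39A10, a zinc importer of the cell surface, had 71.6, 71.1 and 75.4 CPM with Pt-ttpy and 66.8, 28.0 and 61.9 CPM with DMSO. DMSO 2 was far below the other 8 libraries. The transcript holds 37.6% GC. The log2 change of 0.48 with a 95% interval of -0.09 to 1.04 was not called (adjusted p = 0.244). Without DMSO 2 alone it was smaller, at 0.18 (adjusted p = 0.459), and at the same size it was called without cisplatin 2 and DMSO 2 (adjusted p = 0.0334). That fit without both libraries called 33.2% of all genes tested.

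SLC39A14, an importer of zinc, iron and manganese, had 253, 262 and 276 CPM with Pt-ttpy and 293, 281 and 282 CPM with DMSO. Although the values did not overlap, the log2 change was small at -0.12 (95% interval -0.29 to 0.06, adjusted p = 0.378) and was not called, and it was -0.05 with upper-quartile factors or library totals.

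Cisplatin was compared with DMSO as the response to a standard platinum drug at the same labelled toxicity. The metallothioneins MT2A and MT1X were lower here too, while the zinc exporter was not called. Of the 7 genes 2 were called lower, 0 higher and 5 not called, beside 9.78% of all genes tested called lower, 10.7% higher and 20.5% either way. Higher calls were 52.3% of all calls, and 68% with upper-quartile factors or 67.9% with library totals. The 3 cisplatin libraries lay below the 3 DMSO libraries for 5 of the 7 genes and above them for 0, beside 19.4% and 18.6% of all genes tested. The comparison shares its DMSO libraries with that of Pt-ttpy, so the values of the pair are not independent.

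MT2A had 13.3, 11.2 and 12.9 CPM with cisplatin, against 21.0, 27.3 and 24.8 CPM with DMSO. It was 1.95-fold lower with cisplatin (log2 -0.97, SE 0.20, adjusted p = 0.00821). MT1X had 1.51, 1.16 and 1.54 CPM with cisplatin, against 4.7, 3.35 and 5.32 CPM with DMSO. It was 3.17-fold lower (log2 -1.67, SE 0.27, adjusted p = 0.00291). Both were still called in each of the 9 fits that leave out 1 library, and without both cisplatin 2 and DMSO 2 (adjusted p = 0.0326 for MT2A and 0.000342 for MT1X). MT1F had 25, 20 and 5 counts with cisplatin, a wide spread, and its log2 change of -1.65 was not called (adjusted p = 0.0573). It passed in 5 alternatives, DESeq2's Wald test and limma-voom among them.

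MTF1 had 24.6, 14.9 and 24.8 CPM with cisplatin, below its DMSO values of 29.97 to 30.8 CPM. The log2 change of -0.51 (SE 0.17) was not called (adjusted p = 0.0558). Cisplatin 2 was lowest, and without cisplatin 2 and DMSO 2 the change shrank to -0.29 and was called (adjusted p = 0.0344), 1 of 7 alternatives of 22 that called it. SLC30A1 had 65.3, 39.4 and 61.9 CPM with cisplatin and overlapped the DMSO range of 54.5 to 76.0 CPM. Its log2 change of -0.25 had a 95% interval of -0.64 to 0.14 and was not called (adjusted p = 0.354). Without cisplatin 2 and DMSO 2 it was -0.17 (adjusted p = 0.131), and without cisplatin 2 alone -0.05 (0.841) or without DMSO 1 alone -0.13 (0.678). With a correction of each library for GC content, chosen after the data were seen, it was -0.29 and was called (adjusted p = 0.0492).

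SLC39A10 had 83.0, 57.5 and 81.3 CPM with cisplatin, and the DMSO libraries had 66.8, 28.0 and 61.9 CPM. The log2 change of 0.50 was not called (adjusted p = 0.192), and without DMSO 2 alone it was 0.20 (adjusted p = 0.331). It was called without cisplatin 2 and DMSO 2, at 0.36 (adjusted p = 0.000656), and with the correction for GC content, at 0.51 (0.0132). SLC39A14 had 247, 242 and 240 CPM with cisplatin, all below the DMSO values of 281 to 293 CPM. Its log2 change of -0.23 (95% interval -0.41 to -0.05) was not called (adjusted p = 0.0654), and at -0.24 it was called without cisplatin 2 and DMSO 2 (adjusted p = 0.00256).

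**Figure D3:**
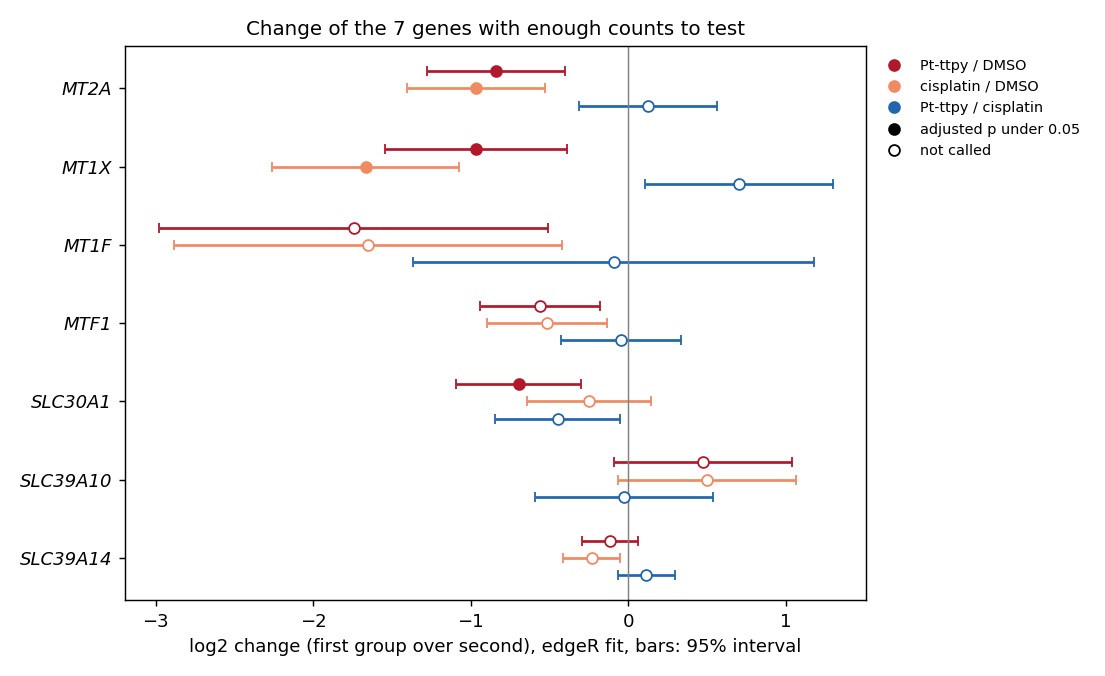
Fitted log2 change with its 95% interval for the 7 genes in the 3 comparisons, filled where the adjusted p was under 0.05. MT2A and MT1X are filled on the lower side for both drugs, SLC30A1 only for Pt-ttpy against DMSO, and no gene is filled for Pt-ttpy against cisplatin.

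The direct comparison of Pt-ttpy with cisplatin tested whether the drugs differed, at doses of 5.5 and 0.6 µM that differ and share only the labelled IC80. Of the 7 genes 0 were called by edgeR, by DESeq2's Wald test or by limma-voom, beside 0.514% of all genes tested by edgeR (0.0578% higher and 0.456% lower with Pt-ttpy). The Pt-ttpy libraries lay above all cisplatin libraries for MT1X and SLC39A14 and below them for 0 genes, beside 10.5% and 10.1% of all genes tested. With an unadjusted p under 0.05 there were 2, MT1X and SLC30A1, beside 8.06% of all genes tested. MT1X was 1.94, 2.59 and 2.31 CPM with Pt-ttpy and 1.51, 1.16 and 1.54 CPM with cisplatin, without overlap. Its log2 difference of 0.70 had a 95% interval of 0.11 to 1.30 (adjusted p = 0.51). MT2A differed by 0.13 on the log2 scale, with an interval of -0.31 to 0.57 (adjusted p = 0.898), and its values overlapped.

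SLC30A1 was lower with Pt-ttpy, at 38.1 to 42.4 CPM, than in cisplatin 1 and cisplatin 3 at 65.3 and 61.9 CPM, while cisplatin 2 had 39.4 CPM. The log2 difference was -0.45 with a 95% interval of -0.84 to -0.05 and was not called (adjusted p = 0.537). Without cisplatin 2 and DMSO 2 it was -0.65 (adjusted p = 1.79e-05), and with the correction for GC content it was -0.58 (adjusted p = 0.0171). Cisplatin 2 was the only cisplatin library within the Pt-ttpy range, so leaving it out separates the groups by itself. The share of all genes called in this comparison was 0.514% in the main fit and ran from 0.113% to 5.2% over the alternatives. MTF1 differed by -0.05 (interval -0.43 to 0.34), SLC39A10 by -0.02 (-0.59 to 0.54), SLC39A14 by 0.12 (-0.06 to 0.30) and MT1F by -0.09 (-1.36 to 1.18). None of these was called (adjusted p between 0.782 and 0.987), and the intervals do not show that the drugs act alike on them.

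Of 9 other SLC30 exporters 7 were tested, and 0 were called by edgeR with Pt-ttpy or with cisplatin against DMSO, beside 12.0% and 20.5% of all genes tested. With an unadjusted p under 0.05 there were 3 and 1, beside 29.8% and 35.1% of all genes tested. Their median log2 change was 0.22 with Pt-ttpy and 0.06 with cisplatin, beside 0.03 and 0.01 over all genes tested. Of 12 other SLC39 importers 9 were tested. With Pt-ttpy 1 was called lower and 0 higher, beside 6.45% and 5.59% of all genes tested, with a median of -0.15. With cisplatin 2 were called lower and 0 higher, beside 9.78% and 10.7% of all genes tested, with a median of -0.17.

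SLC39A7, which releases zinc from the endoplasmic reticulum and Golgi, had 131, 137 and 128 CPM with Pt-ttpy, 146, 148 and 140 CPM with cisplatin and 163, 207 and 177 CPM with DMSO. Both drug groups lay below DMSO, and DMSO 2 was the highest library. The log2 change was -0.47 with Pt-ttpy (adjusted p = 0.0188) and -0.33 with cisplatin (adjusted p = 0.0414). The Pt-ttpy call was lost without Pt-ttpy 1, 2 or 3 (adjusted p = 0.0823, 0.0779 and 0.0792), fits that called 1.16% to 1.87% of all genes. Without cisplatin 2 and DMSO 2 the Pt-ttpy change was -0.36 (adjusted p = 5.6e-05), in a fit that called 33.2% of all genes. The cisplatin call was lost in 14 of 22 alternatives, in 8 of the 9 that leave out 1 library, with adjusted p up to 0.138. Part of an SLC39A7 exon overlaps RXRB on the opposite strand, and the strandedness of the counting is not given in the sources used here.

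SLC39A3, an importer of the plasma membrane, had 78.9, 74.7 and 72.5 CPM with Pt-ttpy, 75.7, 74.4 and 71.5 CPM with cisplatin and 86.5, 124 and 88.9 CPM with DMSO. It was called lower with cisplatin (log2 -0.43, adjusted p = 0.0398) and not with Pt-ttpy (-0.40, adjusted p = 0.0679). The cisplatin call was lost in 10 of 22 alternatives, and without DMSO 2 the change shrank to -0.24 (adjusted p = 0.0497). Its exons overlap those of AC006538.2 on the same strand.

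**Figure D4:**
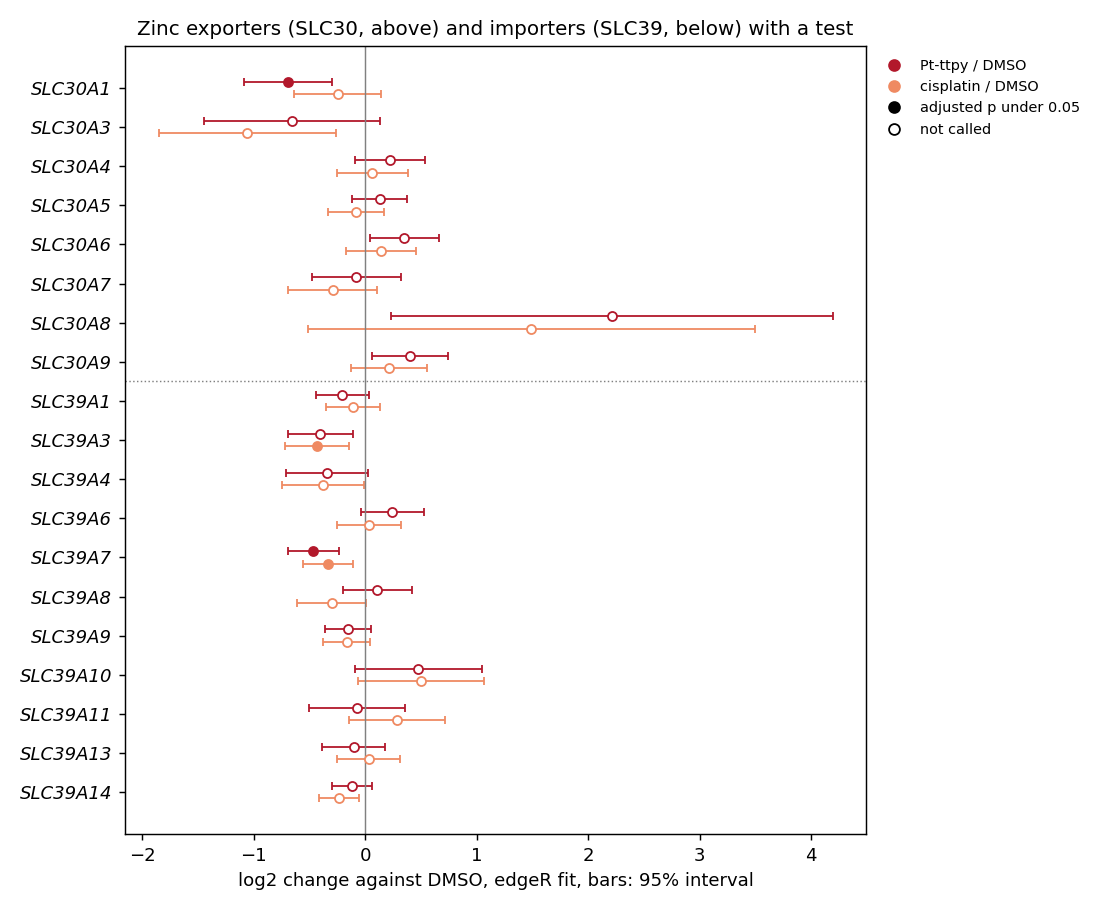
Fitted log2 change against DMSO, with its 95% interval, for the SLC30 exporters above the dotted line and the SLC39 importers below it that passed the filter. Filled points passed the adjusted p of 0.05, which were SLC30A1 and SLC39A7 with Pt-ttpy and SLC39A3 and SLC39A7 with cisplatin, all of them lower.

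Of 5 further factors linked to metallothionein transcription 4 were tested. The glucocorticoid receptor gene NR3C1 had 0 to 6 counts in a library. With Pt-ttpy 1 of the 4 was called lower and 0 higher, beside 6.45% and 5.59% of all genes tested, and with cisplatin 0 were called by edgeR, beside 20.5%. With an unadjusted p under 0.05 there were 3 for each drug, beside 29.8% of all genes tested with Pt-ttpy and 35.1% with cisplatin. USF2, a helix-loop-helix factor, had 84.7, 83.1 and 85.3 CPM with Pt-ttpy, 83.0, 91.6 and 92.0 CPM with cisplatin and 101, 131 and 102 CPM with DMSO. Its log2 change with Pt-ttpy was -0.40 (adjusted p = 0.0428), and the call was lost in 11 of 22 alternatives. Without DMSO 2 it was -0.27 (adjusted p = 0.0602). At that size it was called without cisplatin 2 and DMSO 2 (adjusted p = 0.00198), beside 33.2% of all genes. With the GC correction it was -0.29 and called (adjusted p = 0.0151), beside 22.8% of all genes.

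Across the 9 libraries, the genes outside these lists whose log2 CPM ran closest to that of MT2A included KLC1, a kinesin light chain (r = 0.97), MRPL54, a mitochondrial ribosomal protein (0.97), and NDUFC1, a subunit of complex I (0.95). For SLC30A1 they were WASHC2C, of the WASH complex (0.96), ARPC3, of the Arp2/3 complex (0.94), RALGAPB (0.93) and LATS2, a kinase of the Hippo pathway (0.93). WASHC2C has a near-identical copy, so its counts are uncertain. Among the 7 genes themselves the 21 pairs ran from r = -0.62 for MT2A with SLC39A10 to 0.93 for MT1X with SLC39A14. These Pearson values describe 9 libraries that share 3 treatments, their depth and their GC trends, and carry no test.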

How the data were processed

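Per the labels' protocols, libraries were made from 1.3 ug of total RNA. The authors deposited 1 table of raw counts per gene for 9 libraries. The submitters' processing notes name the build GRCh38. The aligner, the counter, the annotation used, the strandedness and the read length were not given in the sources used here. The table has 24542 rows, of which 19974 carried Ensembl identifiers and 4568 were unnamed newGene loci, which were kept. Positions, exon overlaps and transcript GC content come from GENCODE 29, promoters from RefSeq.

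From these counts, edgeR 4.0.16 (R 4.3.3) was run with filterByExpr (minimum count 10), TMM factors and a robust quasi-likelihood fit over all 9 libraries with 1 mean per group. P-values were adjusted by the Benjamini-Hochberg method over 15558 genes. SE is the size of the log2 change over the root of the F value, and intervals (95%) are t intervals of the fit. The steps were tested on simulated data. Members and lists were chosen with earlier results of these data known. All 10 members are named, and from the 4 lists of related genes those with adjusted p under 0.05. The other metallothioneins and NR3C1 are also named for their counts, and MT1A with its change. Alternatives were DESeq2 1.42.0, limma-voom (limma 3.58.1), other scalings and filters, a threshold of 0.10, libraries left out, a replicate block and a GC correction (lowess span 0.3), the last added after the data were seen. GC content was known for 86.0% of tested genes, and the others were not corrected. Libraries of a group differed by more than sampling noise in all 9 pairs. Of the genes most like MT2A across libraries, 1 is not reported here.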

Additional observations from a re-analysis of the deposited data

How the results depend on the processing

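The 14 member changes against DMSO kept their sign in all 306 recalculations, which covered 3 other scalings, 2 other filters, 2 other tests, left-out libraries, a replicate block and a GC correction. These fits reuse the same libraries and are not independent. Leaving out a library of the drug outside the comparison hardly moves the estimate. Of the 7 members tested, 3 were called for Pt-ttpy against DMSO, beside 12.0% of all genes tested. This count was 5 with DESeq2's Wald test (beside 18.2%), the 6 libraries of the contrast alone (14.8%) or the replicate block (16.3%). It was also 5 at a threshold of 0.10 (21.3%) and without cisplatin 2 and DMSO 2 (33.2%), there 4 lower and 1, SLC39A10, higher. In the 9 fits without 1 library it ran from 0 to 4, beside 1.16% to 19.1%. For cisplatin against DMSO the count was 2, beside 20.5% of all genes tested. It was 5 with DESeq2's Wald test (beside 25.35%), 4 with limma-voom (20.4%) and 4 with the replicate block (23.9%). It was 5 without cisplatin 2 and DMSO 2, 5 at a threshold of 0.10 and 6 with the GC correction. SLC39A10, which was higher, is among the calls without cisplatin 2 and DMSO 2 and with the GC correction. With 1 library left out the count was 2 to 3. Over all these settings the share of all genes called ran from 8.65% to 32.4%. For Pt-ttpy against cisplatin the count was 0, beside 0.514%. It was 1 (SLC30A1) without cisplatin 2 and DMSO 2 and 1 (SLC30A1) with the GC correction. The share of all genes called ran from 0.113% to 5.2% over the settings of this comparison. The cause of these shifts was not tested. For Pt-ttpy against DMSO the share of all genes called ran from 1.16% to 33.2%. As this share moved in all 3 comparisons, the counts of members are to be read beside it.

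Changes of sign occurred only between Pt-ttpy and cisplatin, in log2 differences that were called in no fit. With limma-voom they were 0.11 for MT1F, 0.0114 for MTF1 and 0.0023 for SLC39A10, the last also 0.0148 with the replicate block. In the fits without 1 library the difference ran from -0.51 to 0.49 for MT1F, -0.0595 to 0.34 for MT2A, -0.25 to 0.0737 for MTF1 and -0.18 to 0.068 for SLC39A10, each above and below 0. Deviations of libraries with the same number had r between -0.039 and 0.22 over 9 pairs, 1 of them over 0.1. Between cisplatin and DMSO the 3 same-number pairs (r = 0.0996, 0.22 and 0.0821) were above all pairs of different numbers (at most 0.065), which is a hint of pairing from the data and not from the labels. With Pt-ttpy not every library correlated best with its own number, so the replicate block was not used in the values reported. Depth limits MT1F, with 5 to 61 counts, and the 3 metallothioneins at 0, whose counts of 0 do not show that they are absent. The floor of 3 counts is a chosen value, and lower counts were recorded, such as 1 for SLC39A5 in cisplatin 3.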
